A study of Mus musculus with 15 samples.

Results

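The genes described here are regulators and markers of the formative and primed epiblast, named by 8 symbols: Otx2, Fgf5, Sox3, Pou3f1, Zic2, Oct6, Foxd3 and Sox4. They were looked up by symbol among the 37310 genes of the deposited count table, and 7 of the 8 symbols had a row. Oct6 had none, and the RefSeq gene table lists it as a synonym of Pou3f1. In all, 9 rows carried one of the symbols, because Pou3f1 and Sox4 had 2 rows each, and the row with the higher mean count stands for each symbol unless the sum of both is named. By GENCODE M21, Otx2 and Zic2 lie on chromosome 14, Foxd3 and Pou3f1 on chromosome 4, Fgf5 on chromosome 5, Sox4 on chromosome 13 and Sox3 on the X chromosome. RNA was sequenced from J1, a line of mouse embryonic stem cells, grown in medium with serum and the cytokine LIF. The 5 groups of 3 libraries were Taf5l-KO (knockout of Taf5l), Taf6l-KO (knockout of Taf6l), WT-Taf (the wild-type J1 cells that serve both of these knockouts), cMyc-KO (knockout of c-Myc, the gene Myc) and WT-Myc (wild-type J1 cells for the Myc knockout). The labels do not say whether the libraries of a group came from separate cultures or clones, so the p-values speak of the spread among these particular libraries alone, and that spread could be technical. The 3 cMyc-KO libraries carry a shared code that is not explained, so whether they are 1 clone is not known, and the labels do not state how any knockout was made.

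As the inner cell mass of the blastocyst becomes the epiblast, naive factors give way to a formative and then a primed programme that makes cells ready to choose a germ layer. OTX2 opens this programme by directing the pluripotency factor OCT4 to new enhancers, POU3F1 (also called OCT6) and the ZIC factors act beside it, and FGF5 is the classic secreted marker of the epiblast. TAF5L and TAF6L are subunits of histone acetyltransferase complexes of the SAGA family, and c-MYC is a transcription factor that binds the E-box sequence.

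Library totals ran from 14935631 to 27650813 counts. Each targeted gene was lower in its own knockout in all 3 libraries, with log2 fold changes of -1.02 ± 0.04 (SE) for Taf5l in Taf5l-KO, -1.99 ± 0.08 for Taf6l in Taf6l-KO and -1.19 ± 0.06 for Myc in cMyc-KO. Myc itself fell by 0.69 in Taf5l-KO and by 0.83 in Taf6l-KO. Taf6l fell by 0.35 in Taf5l-KO, and Taf5l fell by 0.19 in cMyc-KO. Taf5l in Taf6l-KO (0.06) and Taf6l in cMyc-KO (0.07) overlapped their wild type. Embryonic stem cell markers (8 genes, Pou5f1 and Nanog among them) summed to between 4253 and 6834 CPM (counts scaled to library size) in every library. Of 7 feeder fibroblast markers, which summed to between 7.84 and 13.2 CPM, Dcn had no count in any library, and Col3a1 and Postn had none in either Taf knockout. Mesoderm, endoderm and trophectoderm markers summed to at most 11.6 CPM. The third cMyc-KO library stood apart from the other 2 of its group, with 36.4 and 26.3 as the chi-square divided by its degrees of freedom, where the other pairs of replicates gave 2.68 to 14.1. Values without this library are given beside each member's cMyc-KO result. All 36 other listed genes named for a call in cMyc-KO kept their call and direction without it.

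Read against their own wild type, with 1 row per symbol, the same members rose and fell in Taf5l-KO and Taf6l-KO. Of those changes, cMyc-KO shared the rise of Otx2 alone. Differences were tested with edgeR's quasi-likelihood test on the counts, adjusted by the Benjamini-Hochberg method over all genes tested, and "rose" or "fell" means an adjusted p under 0.05. In Taf5l-KO against WT-Taf, 4 of the 6 members tested passed (1 rose, 3 fell), where 33.2% of all 15743 genes tested did (17.4% rose and 15.9% fell). In Taf6l-KO against WT-Taf the count was likewise 4 of 6 (1 rose, 3 fell), with 37.2% of all genes called (19.1% rose and 18.2% fell), and it became 5 (1 rose, 4 fell) when the rows of a symbol were summed. In cMyc-KO against WT-Myc, 6 of the 7 members tested passed (4 rose, 2 fell), where 34.8% of 14563 genes did (15.2% rose and 19.5% fell). Fgf5 was too low to be tested in the Taf libraries. The median log2 change over all genes tested was 0.00 in Taf5l-KO, 0.02 in Taf6l-KO and 0.00 in cMyc-KO. Both Taf knockouts are read against the same 3 WT-Taf libraries, so a high or low value in those libraries enters both. Every group is bulk RNA, in which fewer cells expressing a gene and less of its RNA per cell cannot be told apart.

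**Figure D1:**
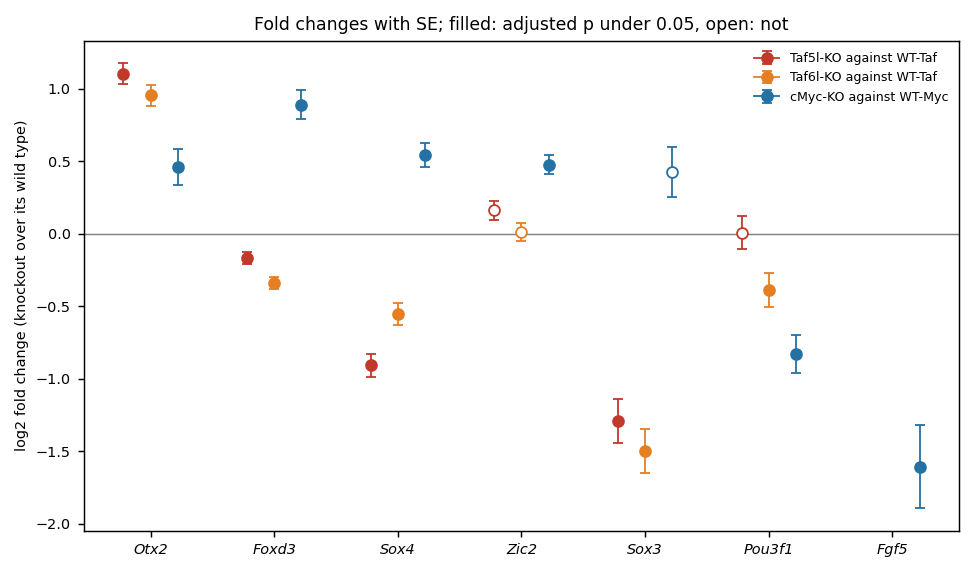
Log2 fold change of each gene in each knockout over its own wild type, with its standard error; filled points have an adjusted p under 0.05 and open points do not. Otx2 lies above 0 in all 3 knockouts, Foxd3 and Sox4 lie below 0 in both Taf knockouts and above 0 in cMyc-KO, and Pou3f1 is drawn from the sum of its 2 rows. Fgf5 was tested in the Myc libraries.

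Otx2 rose in every knockout, while Foxd3 fell in the Taf knockouts and rose in cMyc-KO, and the promoters of this contrasting pair are shown for that reason. The letters are from RefSeq, build GRCm38.p6, the 250 bases before an annotated start, read 5′ to 3′ on the gene's strand. The Foxd3 stretch is chr4:99656049-99656298, plus strand. The Otx2 stretch lies before the most upstream of its 4 RefSeq starts, chr14:48667645-48667894, minus strand. Capitals mark CACGTG, the E-box.
Foxd3: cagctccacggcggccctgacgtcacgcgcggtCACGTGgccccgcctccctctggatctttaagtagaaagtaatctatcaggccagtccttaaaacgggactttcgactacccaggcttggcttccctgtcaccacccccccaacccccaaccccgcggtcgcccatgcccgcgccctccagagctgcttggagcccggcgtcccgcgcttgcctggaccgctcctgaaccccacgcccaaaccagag
Otx2: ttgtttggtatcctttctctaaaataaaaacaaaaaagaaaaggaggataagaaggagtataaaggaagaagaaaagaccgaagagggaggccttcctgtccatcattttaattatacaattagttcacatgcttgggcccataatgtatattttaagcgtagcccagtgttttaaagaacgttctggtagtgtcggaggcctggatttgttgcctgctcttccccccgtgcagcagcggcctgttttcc
The Foxd3 window held 1 E-box and this Otx2 window held none. The windows of Sox4, of Fgf5 and of the downstream Otx2 starts held none either, although Sox4 changed in the same directions as Foxd3. Across 32851 promoters of 300 bases (250 before and 50 after the start), 7.15% hold CACGTG, whose reverse complement is itself. TAATCC, the OTX homeodomain motif, was searched on both strands with ATGCAAAT, the octamer, and ACAATG, a SOX motif. They occur in 7.06%, 1.74% and 12.6% of promoters. Among the windows of Foxd3, Fgf5, Sox4 and the 4 starts of Otx2, these 3 motifs gave a single match, TAATCC at 1 of the downstream Otx2 starts. Sox3, Pou3f1 and Zic2 were not matched in the promoter table. A match is a run of letters and no measure of binding.

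Otx2, the homeobox gene that drives entry into the formative state, was higher in all 3 knockouts. It measured 15.9, 15.5 and 15.6 CPM in the Taf5l-KO libraries and 13.7, 14.8 and 13.96 CPM in the Taf6l-KO libraries, against 7.55, 7.01 and 7.31 CPM in the WT-Taf libraries. Every library of each Taf knockout was thus well above every WT-Taf library, and the spread within each group was small. The log2 fold change over WT-Taf was 1.10 ± 0.07 in Taf5l-KO (adjusted p = 7.37e-08) and 0.95 ± 0.07 in Taf6l-KO (adjusted p = 2.02e-07). In the Myc experiment Otx2 measured 15.3, 15.9 and 16.9 CPM in cMyc-KO and 14.1, 10.8 and 10.4 CPM in WT-Myc. The groups did not overlap, but the first WT-Myc library stood close to the knockouts. Otx2 rose there by 0.46 ± 0.12 on the log2 scale (adjusted p = 0.0229). That call was lost without the second WT-Myc library (0.40, adjusted p = 0.0916) and without the third (0.37, adjusted p = 0.0826), and without the third cMyc-KO library it was 0.44 (adjusted p = 0.0178).

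The rise of Otx2 in cMyc-KO ran against its chromosome. On chromosome 14, 34 of 483 tested genes rose in cMyc-KO (7.04%) and 237 fell (49.1%), with a median log2 change of -0.32, whereas over all genes 15.2% rose and 19.5% fell. Of the 10 tested genes nearest Otx2, 5 on each side, none rose and 9 fell, with a median of -0.79. Without the third cMyc-KO library, 46 of 491 genes on the chromosome rose and 247 fell, and again 9 of the 10 neighbours fell, a count added after seeing the data. The neighbours Exoc5 and Ktn1 changed by -0.57 and -0.56. The part that the shift of chromosome 14 has in the Otx2 value was not tested. In the Taf knockouts chromosome 14 did not show such a shift, where 90 of its 505 tested genes rose and 79 fell in Taf5l-KO, and 101 rose and 86 fell in Taf6l-KO. Of 3 related homeobox genes tested, 1 fell in either Taf knockout and 1 rose in cMyc-KO, the same gene each time. This was Dmbx1 (a gene of the developing brain), which fell by 0.89 in Taf5l-KO and by 0.98 in Taf6l-KO and rose by 0.53 in cMyc-KO on the log2 scale. Otx1 had log2 changes of -0.56, -1.09 and -0.04 in Taf5l-KO, Taf6l-KO and cMyc-KO, and none of them passed. Over all genes, 33.2% were called in Taf5l-KO, 37.2% in Taf6l-KO and 34.8% in cMyc-KO.

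**Figure D2:**
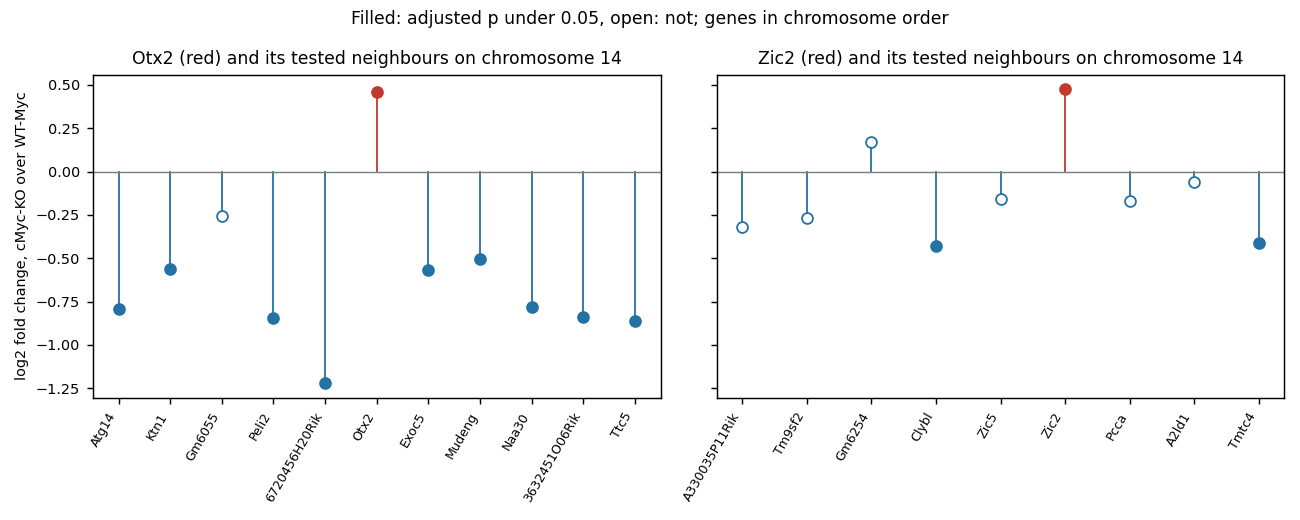
Log2 fold change in cMyc-KO over WT-Myc of Otx2 and Zic2 (red) and of their nearest tested neighbours on chromosome 14 in chromosome order (blue); filled points have an adjusted p under 0.05. Otx2 and Zic2 stand above 0 among neighbours that lie mostly below 0.

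Zic2, a zinc finger factor that occupies enhancers in embryonic stem cells, rose in cMyc-KO and did not pass in either Taf knockout. It measured 25.2, 25.6 and 27.0 CPM in cMyc-KO and 17.9, 18.8 and 19.2 CPM in WT-Myc. The groups were far apart relative to their spread, and the log2 change was 0.48 ± 0.06 (adjusted p = 0.00109) or 0.46 without the third cMyc-KO library. Zic2 also lies on chromosome 14, and of its 8 tested neighbours none rose and 2 fell (median -0.22). In the Taf experiment the group means were 17.4 ± 0.9 CPM in Taf5l-KO and 15.7 ± 0.41 CPM in Taf6l-KO, against 15.5 ± 0.61 CPM in WT-Taf (SD, n = 3 each). Taf5l-KO lay above WT-Taf in each library without passing (log2 0.16 ± 0.06, adjusted p = 0.0698), and it passed without the second Taf5l-KO library (0.20, adjusted p = 0.0480). Taf6l-KO overlapped WT-Taf (0.01 ± 0.06, adjusted p = 0.944). Zic5, a ZIC gene beside Zic2, had -0.05, 0.04 and -0.16 in Taf5l-KO, Taf6l-KO and cMyc-KO, none past the threshold.

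Foxd3, a forkhead repressor and activator needed to keep epiblast cells pluripotent, rose in cMyc-KO and fell in both Taf knockouts. It measured 92.3, 92.7 and 71.9 CPM in cMyc-KO, against 46.1, 46.0 and 46.5 CPM in WT-Myc. The lowest knockout library was the one that stands apart, and it was still well above the WT-Myc libraries, which were almost level with each other. The log2 change was 0.89 ± 0.10 (adjusted p = 0.000461), and without that library 1.02 (adjusted p = 6.33e-07). In the Taf experiment Foxd3 measured 69.1, 66.2 and 68.8 CPM in Taf5l-KO and 60.1, 61.3 and 60.2 CPM in Taf6l-KO, against 80.1, 72.3 and 76.9 CPM in WT-Taf. The 3 groups formed separate steps, with Taf6l-KO lowest and WT-Taf highest. Foxd3 fell by 0.17 ± 0.04 in Taf5l-KO (adjusted p = 0.0056) and by 0.34 ± 0.04 in Taf6l-KO (adjusted p = 1.73e-05) on the log2 scale. The Taf5l-KO value lost its call when all 15 libraries were fitted together (adjusted p = 0.126) and with limma on FPKM (adjusted p = 0.0523 and 0.0526). Foxd1, the only other FOXD gene tested, fell by 1.76 in Taf5l-KO and by 1.80 in Taf6l-KO and was not tested in the Myc libraries. Its group means were very low, at 0.214 CPM in Taf5l-KO and 0.204 CPM in Taf6l-KO against 0.729 CPM in WT-Taf.

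Sox4, a SOXC factor known from neural and lymphoid progenitors, went the same way as Foxd3. It measured 16.0, 18.5 and 19.6 CPM in Taf5l-KO and 24.9, 22.8 and 21.5 CPM in Taf6l-KO, against 34.3, 31.5 and 36.2 CPM in WT-Taf. No 2 of these groups overlapped, and Taf5l-KO was lowest. The log2 change over WT-Taf was -0.91 ± 0.08 in Taf5l-KO (adjusted p = 8.28e-07) and -0.55 ± 0.07 in Taf6l-KO (adjusted p = 4.55e-05). In cMyc-KO, Sox4 measured 32.7, 30.6 and 36.5 CPM, against 21.996, 24.1 and 22.4 CPM in WT-Myc. Again the groups were separate, and the gene rose by 0.54 ± 0.08 (adjusted p = 0.00175), or 0.49 without the third cMyc-KO library. That call was lost with limma on the authors' FPKM (adjusted p = 0.0637 and 0.0610 with pseudocounts of 1 and 0.1). A second row with the symbol Sox4, whose identifier is not in the GENCODE M21 annotation, held at most 39 counts in a library, and summing the rows left log2 changes of -0.90, -0.54 and 0.52 in Taf5l-KO, Taf6l-KO and cMyc-KO.

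Sox3, a SOXB1 factor close to Sox2 and later a gene of neural progenitors, fell most in the Taf knockouts. It measured 2.02, 2.70 and 2.35 CPM in Taf5l-KO (34 to 53 counts) and 1.89, 2.10 and 2.16 CPM in Taf6l-KO (38 to 47 counts). In WT-Taf it measured 5.45, 5.32 and 6.77 CPM (100 to 107 counts). The WT-Taf libraries were all far above the knockouts, and the knockouts overlapped each other. The log2 change was -1.29 ± 0.15 in Taf5l-KO (adjusted p = 1.55e-05) and -1.50 ± 0.15 in Taf6l-KO (adjusted p = 3.01e-06). Sox3 is on the X chromosome, of whose 564 tested genes 31.4% fell in Taf5l-KO and 34.2% in Taf6l-KO, whereas over all genes 15.9% fell in Taf5l-KO and 18.2% in Taf6l-KO. On that chromosome 11.3% rose in Taf5l-KO and 12.9% in Taf6l-KO, whereas over all genes 17.4% rose in Taf5l-KO and 19.1% in Taf6l-KO. Among the 10 tested neighbours of Sox3, 0 rose and 5 fell in Taf5l-KO (median -0.31), and 2 rose and 6 fell in Taf6l-KO (median -0.43). The part of the chromosome in the Sox3 value was not tested. In cMyc-KO, Sox3 measured 7.88, 7.74 and 5.73 CPM, against 5.20, 6.24 and 4.46 CPM in WT-Myc, and the groups overlapped through the third knockout library. The log2 change of 0.42 ± 0.17 did not pass (adjusted p = 0.0942), and without that library it did (0.58, adjusted p = 0.00871). Sox3 also rose past the threshold in the fit of all 15 libraries, where 5 of 7 members rose in cMyc-KO and 1 fell.

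Other SOX genes did not share 1 direction. Of 9 tested in the Taf experiment, 2 rose and 2 fell in Taf5l-KO, and 1 rose and 3 fell in Taf6l-KO. Sox2, the SOXB1 partner of OCT4, rose by 0.16 in Taf5l-KO and had 0.08 in Taf6l-KO (adjusted p = 0.061) and 0.01 in cMyc-KO (adjusted p = 0.91). Sox11, a SOXC gene like Sox4, fell by 0.56 in Taf5l-KO and by 0.71 in Taf6l-KO. Of 9 tested in cMyc-KO, 1 rose and 4 fell, among them Sox21 by 1.43. The called share of all genes was 33.2% in Taf5l-KO, 37.2% in Taf6l-KO and 34.8% in cMyc-KO. Neuroectoderm markers, a tissue in which Sox3 and Otx2 are also used, summed to between 54.3 and 59.2 CPM in Taf5l-KO, between 65.9 and 70.2 CPM in Taf6l-KO and between 83.5 and 87.6 CPM in WT-Taf. They summed to between 80.6 and 94.0 CPM in cMyc-KO and between 116 and 123 CPM in WT-Myc. Of these 5 genes, Tubb3 made up most of the sum in every group. Its mean in WT-Taf was 78.3 CPM, against 4.89 CPM for Nes and 2.20 CPM for Pax6. Tubb3 fell by 0.80 in Taf5l-KO, by 0.50 in Taf6l-KO and by 0.44 in cMyc-KO, and Neurog2 had no count in either Taf knockout. Against the fall of the sum, Pax6 rose by 0.92 in Taf5l-KO and by 0.88 in Taf6l-KO, and Nes rose by 0.64 in Taf5l-KO and by 0.84 in Taf6l-KO. In cMyc-KO, Pax6 fell by 0.46 (adjusted p = 0.0296) and Nes had -0.24 (adjusted p = 0.108). Their part in the Sox3 and Otx2 values was not tested.

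**Figure D3:**
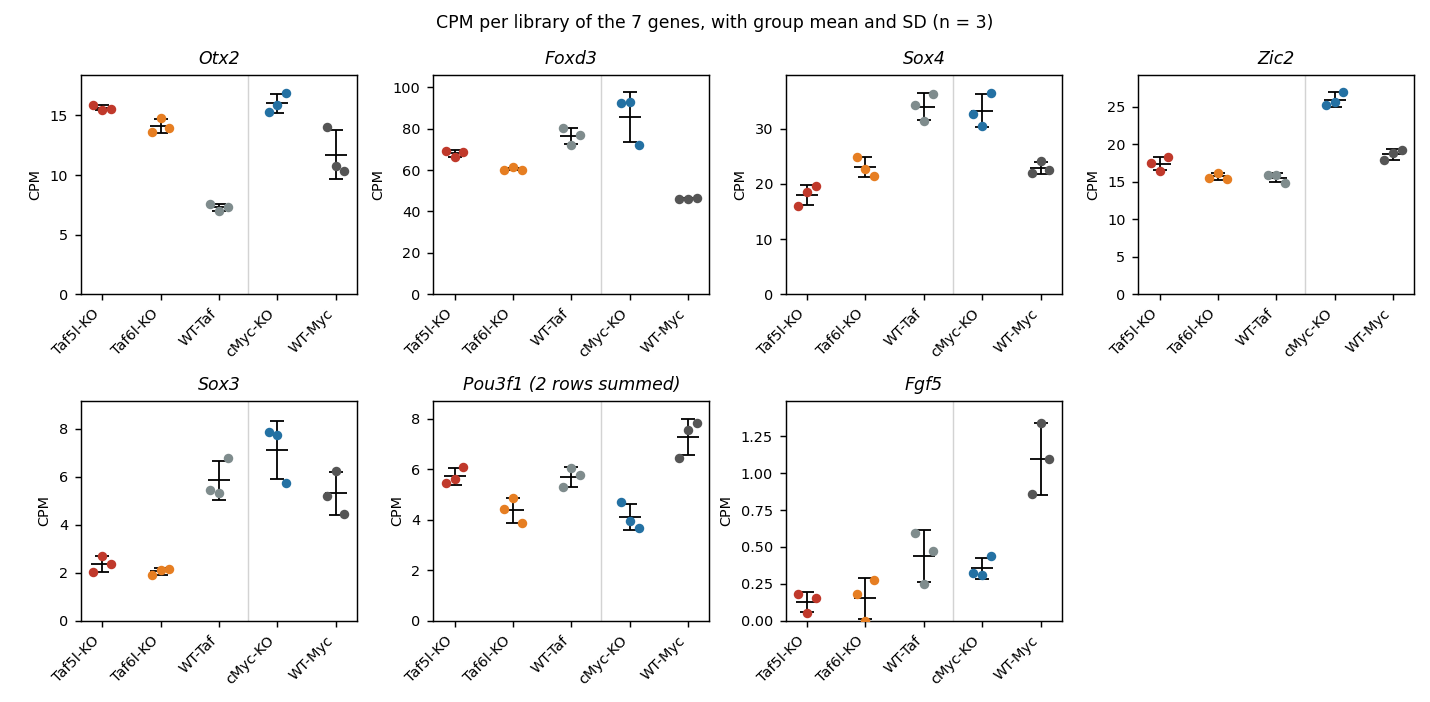
CPM of each gene in every library (points), with the group mean and SD (black, n = 3), for the Taf experiment left of the grey line and the Myc experiment right of it; each panel has its own axis from 0. Otx2 is lowest in WT-Taf, Sox3 is lowest in the Taf knockouts, and Foxd3, Sox4 and Zic2 are higher in cMyc-KO than in WT-Myc.

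Pou3f1, the POU-domain factor known as OCT6, had its counts divided over 2 rows in 2 libraries. The row with the higher mean held 92, 110 and 117 counts in Taf5l-KO and 98, 88 and 84 in Taf6l-KO, against 5, 122 and 7 in WT-Taf. The other row held 93 counts in the first WT-Taf library, 78 in the third and 0 in all the other 13 libraries. The low values of the main row in WT-Taf are therefore matched by counts in the other row, whose identifier is not in GENCODE M21. Read from the main row alone, the log2 changes were 1.22 ± 0.55 in Taf5l-KO (adjusted p = 0.104) and 0.83 ± 0.56 in Taf6l-KO (adjusted p = 0.278). They became 3.97 in Taf5l-KO and 3.57 in Taf6l-KO, both called, without the second WT-Taf library. With the rows summed, a choice made after seeing the data, Pou3f1 measured 5.46, 5.61 and 6.11 CPM in Taf5l-KO and 4.42, 4.85 and 3.86 CPM in Taf6l-KO, against 5.28, 6.07 and 5.75 CPM in WT-Taf. Taf5l-KO then lay on top of WT-Taf, and all Taf6l-KO libraries lay below. The summed log2 change was 0.01 ± 0.11 in Taf5l-KO (adjusted p = 0.974) and -0.39 ± 0.12 in Taf6l-KO, where it fell (adjusted p = 0.0178). Nothing was split in the Myc experiment, where Pou3f1 measured 4.69, 3.96 and 3.69 CPM in cMyc-KO, against 6.46, 7.54 and 7.83 CPM in WT-Myc. All knockout libraries lay below, with a log2 change of -0.83 ± 0.13 (adjusted p = 0.00246), or -0.73 without the third cMyc-KO library. The call was lost in the fit of all 15 libraries (adjusted p = 0.190). That fit took in the main row of WT-Taf, which is divided in 2 libraries, and the part of this in the loss was not tested.

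**Figure D4:**
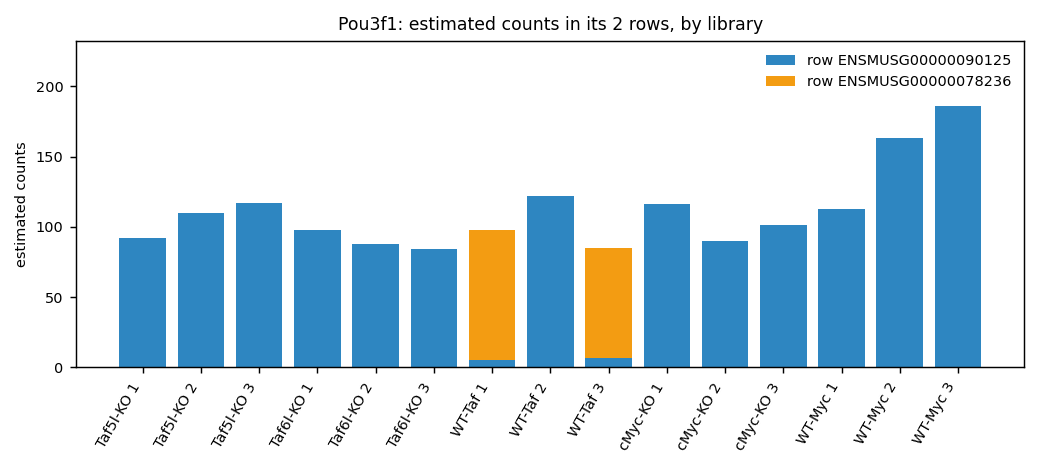
Estimated counts of Pou3f1 in each library, stacked from its 2 rows in the deposited table, with knockouts left of their wild type. The second row holds counts in 2 libraries, WT-Taf 1 and WT-Taf 3, and the stacks of those 2 (98 and 85) stand near the 84 to 122 counts of the other Taf libraries.

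Other POU genes included Pou4f2, a factor of sensory and retinal neurons, which fell by 0.93 in Taf5l-KO, by 1.20 in Taf6l-KO and by 0.81 in cMyc-KO. Pou5f1, which encodes OCT4, changed little, with -0.07 in Taf5l-KO (adjusted p = 0.093), -0.22 in Taf6l-KO (adjusted p = 4.8e-05) and 0.00 in cMyc-KO (adjusted p = 0.99). Of 8 POU genes tested, 1 rose and 1 fell in Taf5l-KO, 1 rose and 2 fell in Taf6l-KO, and 2 rose and 3 fell in cMyc-KO. Over all genes tested, 33.2% were called in Taf5l-KO, 37.2% in Taf6l-KO and 34.8% in cMyc-KO.

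Fgf5, the secreted growth factor that marks the epiblast, had few counts in every group. It had 8, 7 and 12 counts in cMyc-KO, against 15, 29 and 26 in WT-Myc, or 0.356 ± 0.0711 CPM against 1.10 ± 0.242 CPM (SD, n = 3 each). All knockout libraries were below all wild-type ones, and Fgf5 fell by 1.61 ± 0.29 on the log2 scale (adjusted p = 0.00398), or 1.77 without the third cMyc-KO library. In the Taf experiment it had 3, 1 and 3 counts in Taf5l-KO and 4, 0 and 6 in Taf6l-KO, against 11, 5 and 7 in WT-Taf. Taf5l-KO lay below WT-Taf and Taf6l-KO overlapped it. A count of 0 in that Taf6l-KO library allows up to 3 counts, or 0.165 CPM, counting error alone considered. Without the filter on low counts, the log2 changes of -1.73 in Taf5l-KO (adjusted p = 0.0541) and -1.41 in Taf6l-KO (adjusted p = 0.100) did not pass, so a difference was not detectable at this depth.

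Among the other FGF ligands, Fgf4, the main FGF of naive cells, fell by 0.31 in Taf5l-KO and by 0.29 in Taf6l-KO and had 0.02 in cMyc-KO (adjusted p = 0.70). Fgf18 fell by 2.18 in Taf5l-KO, by 1.54 in Taf6l-KO and by 2.86 in cMyc-KO. Fgf15, an epiblast and neural ligand, fell by 1.63 in cMyc-KO, and Fgf10, a ligand of limb and lung buds, rose in each knockout, by 0.87 in Taf5l-KO, 0.91 in Taf6l-KO and 1.15 in cMyc-KO. In all, 1 of 10 tested ligands rose and 4 fell in either Taf knockout, and 2 of 9 rose and 2 fell in cMyc-KO. Of all genes tested, 33.2% were called in Taf5l-KO, 37.2% in Taf6l-KO and 34.8% in cMyc-KO.

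The Taf knockouts differed from each other in 2 of 6 members tested, where 18.7% of all genes were called. Foxd3 was lower in Taf6l-KO than in Taf5l-KO (log2 -0.17 ± 0.04, adjusted p = 0.0105) and Sox4 was higher (0.35 ± 0.08, adjusted p = 0.00717). With rows summed, Pou3f1 was lower in Taf6l-KO (-0.39 ± 0.12, adjusted p = 0.0293). Otx2 and Sox3 did not pass, at -0.15 ± 0.07 (adjusted p = 0.133) and -0.21 ± 0.17 (adjusted p = 0.449), nor did Zic2, at -0.15 ± 0.06 (adjusted p = 0.116). The Foxd3 difference was lost when library totals replaced TMM scaling (-0.08, adjusted p = 0.261).

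The Taf effects were set against the Myc effect in a fit of all 15 libraries, as the difference between the 2 log2 fold changes. For Taf5l-KO, 6 of 7 members differed from cMyc-KO, where 32.1% of 16286 genes did, and for Taf6l-KO 5 of 7 differed, where 34.8% did. Foxd3, Sox4 and Sox3 were lower in the Taf effects, by 1.10, 1.49 and 1.76 on the log2 scale for Taf5l-KO and by 1.27, 1.14 and 1.97 for Taf6l-KO. In this fit the fall of Foxd3 in Taf5l-KO did not pass on its own (-0.18, adjusted p = 0.126). Otx2 rose in all 3, and its Taf effects were larger by 0.60 (Taf5l-KO, adjusted p = 0.00249) and 0.45 (Taf6l-KO, adjusted p = 0.0140). Pou3f1 differed by 2.02 (Taf5l-KO, adjusted p = 0.0407) from its main row and by 0.79 (adjusted p = 0.00252) from the sum of its rows. Fgf5 did not differ past the threshold, at -0.17 ± 0.69 for Taf5l-KO and 0.17 ± 0.83 for Taf6l-KO. Each Taf effect is measured against WT-Taf and the Myc effect against WT-Myc, so these differences also hold whatever else separates the 2 experiments, and the 2 cannot be told apart.

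Per length, Fgf5 was the lowest member and Foxd3 or Otx2 the highest in every group. On the authors' FPKM scale (fragments scaled to transcript length and library size), Otx2 led in 4 of 5 groups, with 69.2 ± 2.43 FPKM in Taf5l-KO, 62.6 ± 4.13 in Taf6l-KO, 68.6 ± 1.90 in cMyc-KO and 49.0 ± 4.80 in WT-Myc (SD, n = 3 each). In WT-Taf it was 33.2 ± 0.737 FPKM, below Foxd3 at 37.4 ± 1.93 FPKM, and these ranges did not overlap. That order rests on the length used. The deposited normalized count per FPKM was 5.01 for Otx2 and between 19.7 and 60.1 for the other 6, although the longest Otx2 transcript in GENCODE M21 (2592 bases) is of like length to the 2324 bases of Foxd3. With CPM per kilobase of the longest transcript, a scale added after seeing the data, Foxd3 was highest in all 5 groups (19.9 to 36.8 on the group means). Otx2 was then 3rd to 5th, with 6.04 in Taf5l-KO, 5.45 in Taf6l-KO, 2.81 in WT-Taf, 6.18 in cMyc-KO and 4.52 in WT-Myc. Zic2 was above Sox4 without overlap in 4 groups on this scale, for example at 6.75 to 7.49 against 3.34 to 4.08 in Taf5l-KO. In WT-Taf the order was turned, with Zic2 at 6.08 to 6.52 and Sox4 at 6.56 to 7.55. On the FPKM scale the mean of Sox4 was above that of Zic2 in every group but Taf5l-KO. It was 18.1 against 15.3 FPKM in Taf6l-KO, while the libraries overlapped in cMyc-KO and WT-Myc. Group means of CPM per kilobase lay between 0.992 and 3.45 for Sox3 and between 1.07 and 1.89 for Pou3f1, whose libraries overlapped in Taf6l-KO, and no library exceeded 0.536 for Fgf5.

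**Figure D5:**
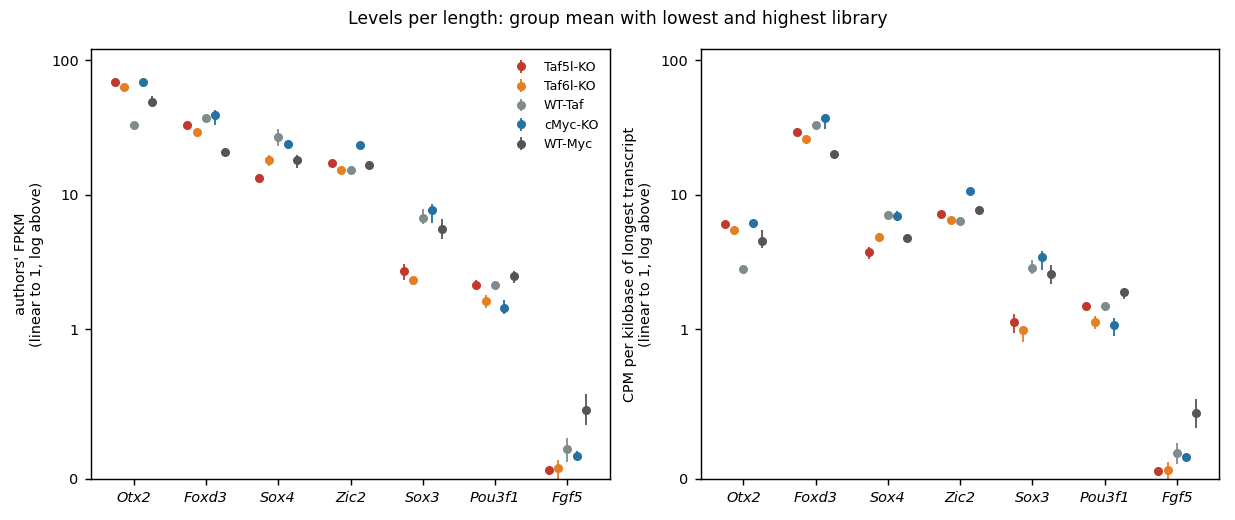
Level per length of each gene in the 5 groups, as the authors' FPKM (left) and as CPM per kilobase of the longest GENCODE M21 transcript (right), with the group mean and the lowest and highest library; the axes are linear to 1 and logarithmic above, and Pou3f1 is the sum of its rows. Otx2 leads 4 groups on the left, Foxd3 leads all 5 on the right, and Fgf5 is lowest on both.

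Further genes of the same transition moved in both directions. Of 20 other formative and primed genes tested, 8 rose and 5 fell in Taf5l-KO (median log2 change 0.03), 6 rose and 8 fell in Taf6l-KO (-0.05), and 3 rose and 9 fell in cMyc-KO (-0.19). Over all genes, 17.4% rose and 15.9% fell in Taf5l-KO, 19.1% and 18.2% in Taf6l-KO, and 15.2% and 19.5% in cMyc-KO. Dnmt3l, the cofactor of the de novo DNA methyltransferases, rose by 0.91 in Taf5l-KO, 0.58 in Taf6l-KO and 0.86 in cMyc-KO. Dnmt3a, 1 of those enzymes, rose by 0.62 in Taf5l-KO and by 0.33 in Taf6l-KO, with 0.01 in cMyc-KO (adjusted p = 0.87). Tcf15, a helix-loop-helix factor that primes cells for differentiation, fell by 0.90 in Taf5l-KO, by 1.17 in Taf6l-KO and by 0.58 in cMyc-KO. Etv4, an ETS factor that answers FGF signal, fell by 0.40 in Taf5l-KO and by 0.56 in Taf6l-KO and rose by 0.61 in cMyc-KO. Sall2, a zinc finger factor, fell by 0.72 in cMyc-KO, and Lin28a, an RNA-binding protein that blocks let-7, rose there by 0.37.

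Naive genes, which the formative programme replaces, were mostly lower in the Taf knockouts. Of 19 tested, 2 rose and 13 fell in Taf5l-KO (median -0.31), and 1 rose and 14 fell in Taf6l-KO (median -0.29), whereas 7 rose and 4 fell in cMyc-KO (median 0.02). Klf4, a Krüppel-like factor of naive cells, fell by 0.63 in Taf5l-KO and by 0.58 in Taf6l-KO and rose by 0.29 in cMyc-KO. Nr0b1, a nuclear receptor of the same network, fell by 0.48 in Taf5l-KO and by 0.74 in Taf6l-KO. Tbx3 and Zfp42 rose in cMyc-KO by 0.40 and 0.31, whereas the naive genes Tcl1 and Gbx2 fell there. Tcl1 had a mean of 43.7 CPM in cMyc-KO against 69.7 CPM in WT-Myc, and Gbx2 had 30.2 CPM against 44.2 CPM. In the FGF, ERK and Nodal pathway, 6 of 20 genes rose and 5 fell in Taf5l-KO, 6 rose and 7 fell in Taf6l-KO, and 4 rose and 7 fell in cMyc-KO. For this list and the naive one, the shares over all genes were 17.4% risen and 15.9% fallen in Taf5l-KO. They were 19.1% and 18.2% in Taf6l-KO, and 15.2% and 19.5% in cMyc-KO. Spry4, a feedback inhibitor of FGF signal, fell by 0.54 in Taf5l-KO and by 0.68 in Taf6l-KO. The receptor gene Fgfr1 rose in Taf5l-KO, with a mean of 72.9 CPM against 57.3 CPM in WT-Taf. In cMyc-KO, Nodal, the TGF-beta family ligand of the epiblast, fell by 1.29, and Fgfr2, an FGF receptor, fell by 1.51. Etv4, also in this list, rose in cMyc-KO as given above.

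The genes whose profile was most like that of a member were found by Pearson correlation of log2 CPM over the 15 libraries, after subtracting the mean of the own wild type. These correlations describe libraries that share groups and depth, and they carry no test. For Foxd3 they were Sh3bp4 (r = 0.995), Accsl (0.982) and Kank4 (0.982). For Sox3 they were Bahcc1 (0.982), Ets2 (0.979) and Lbr (0.978), and for Sox4 they were Strap (0.983), Jam2 (0.976) and Mageb16 (0.973). Otx2 was followed by Atxn10 (0.975), Ssx2ip (0.968) and Morf4l2 (0.965), which all had smaller changes than Otx2 itself, for example 0.68 in Taf5l-KO, 0.61 in Taf6l-KO and 0.40 in cMyc-KO for Morf4l2. Zic2 was followed by D1Pas1 (0.972), Fam81a (0.967) and Dsg2 (0.966). For Pou3f1, whose main row is divided in WT-Taf, they were Lnx2 (0.943), Rtkn2 (0.933) and Sec24d (0.897).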

How the data were processed

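The titles put the 15 RNA-seq libraries into 5 groups of 3. Whole-number estimated counts, normalized values on a count scale (a signal) and FPKM values per gene were deposited by the authors. Salmon 0.8.2, DESeq2 1.14.1 and build mm9 appear in the submitters' processing notes without a role for each. Which gene models they used is not given here. The libraries were made with a strand-specific kit after removal of ribosomal RNA, per the labels' protocols, and whether counting used strand is not stated; Otx2, Pou3f1 and Sox4 overlap antisense genes that have no row. The deposited TPM table was not used, and its 15 columns were not assigned, because its header does not match the other tables.

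The count tests used edgeR 4.0.16 under R 4.3.3 (TMM, filterByExpr, glmQLFit, glmQLFTest) with Benjamini-Hochberg adjustment at 0.05. The 9 Taf and the 6 Myc libraries were fitted separately, and differences between effects used all 15. CPM values use TMM-scaled totals within each experiment. A standard error is the log2 change divided by the square root of F. The steps were also run on simulated counts. Far fewer genes changed there than were called here, so that run did not check the steps at such a share. Chromosomes and transcript lengths come from GENCODE M21, matched by ID for 32620 genes (87.4%), and promoters from RefSeq GRCm38.p6. Plots used Python 3.11.15 and matplotlib 3.10.9.

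The members and gene lists were chosen with earlier results of these data known. Genes named are the members, the targeted genes, up to 4 called genes with the smallest p per list and comparison, family members, and the 3 genes most like each member in profile among those with a mean of at least 10 CPM; of these the text gives examples, and 1 is not reported here. The neighbours named were chosen after their values were seen. The alternatives tried were DESeq2 1.42.0, RLE scaling, totals of the libraries, leaving out the filter, only the groups compared, all 15 libraries, limma 3.58.1 on log2(FPKM + 1) or log2(FPKM + 0.1) with a mean of at least 0.5 FPKM, a replicate block, each library left out, and summed rows.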

Additional observations from a re-analysis of the deposited data

Results flagged for a closer look

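Tests of the difference between a Taf effect and the Myc effect, each relative to its own wild type, passed for 11 of 14 pairs of a member and a Taf knockout, as log2 Taf effect minus log2 cMyc-KO effect. Over all 16286 genes tested, 32.1% passed for Taf5l-KO and 34.8% for Taf6l-KO. For Sox3 the difference was -1.76 (Taf5l-KO) and -1.97 (Taf6l-KO), and the gene fell in both Taf knockouts. For Foxd3 it was -1.1 (Taf5l-KO) and -1.27 (Taf6l-KO), and for Sox4 -1.49 (Taf5l-KO) and -1.14 (Taf6l-KO). For Zic2 it was -0.354 (Taf5l-KO) and -0.503 (Taf6l-KO). For Otx2 it was 0.598 (Taf5l-KO) and 0.452 (Taf6l-KO), in the same direction in all 3 knockouts. For Pou3f1 it was 2.02 (Taf5l-KO) from the main row and 0.79 (adjusted p = 0.00252) from the sum of its rows, and the main row is divided in 2 WT-Taf libraries. Both sets of differences use the same cMyc-KO, WT-Myc and WT-Taf libraries.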

How the results depend on the processing

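The number of members called stayed within 1.5 times its first value in Taf5l-KO, Taf6l-KO and cMyc-KO against their wild types under every alternative run. Leaving out 1 library gave 4 to 5 called members in either Taf knockout, 5 to 7 in cMyc-KO, always 2 between the Taf knockouts, and 5 to 6 differing from cMyc-KO for each Taf knockout. For Taf5l-KO, the 6 differing members became 5 without any 1 Taf5l-KO library and without any 1 WT-Myc library. In those runs 1 difference was positive in place of 2. Between the Taf knockouts the 2 members became 3 with no filter, 3 with only the groups compared, 3 with rows summed, 1 with library totals, 1 with all 15 libraries and 0 with limma on either FPKM scale. All genes called with a library left out numbered 4243 to 4751 (Taf5l-KO), 4933 to 5136 (Taf6l-KO), 3402 to 5923 (cMyc-KO) and 2022 to 2634 (Taf knockouts against each other). In place of 5234, 5861, 5064 and 2938, limma called 2633 or 2663 genes in Taf5l-KO, 3118 or 3124 in Taf6l-KO, 3164 or 3173 in cMyc-KO and 926 or 923 between the Taf knockouts (pseudocounts 1 and 0.1). Between the Taf knockouts DESeq2 called 1838 and the fit of all 15 libraries 1647. The replicate numbers do not pair the samples: deviations of same-numbered cMyc-KO and WT-Myc libraries correlated at -0.23, -0.10 and -0.43. With a replicate block, 3139 genes were called in cMyc-KO and Otx2 had 0.46 there (adjusted p = 0.0656), and it changed no other member's call. Sox4 in cMyc-KO lost its call with limma (adjusted p = 0.0637 and 0.0610), as did Foxd3 in Taf5l-KO (0.0523 and 0.0526). These signs changed: Zic2 in Taf6l-KO was -0.0010 with DESeq2, -0.0014 with only the groups compared, and -0.019 to 0.028 with a library left out. The Fgf5 difference from cMyc-KO then ran from -0.48 to 0.23 for Taf5l-KO and from -0.50 to 0.66 for Taf6l-KO. Pou3f1 in Taf6l-KO turned to -0.39 (adjusted p = 0.0178) with rows summed, and had 0.82 (adjusted p = 5.11e-06) with no filter. With limma, 2 called values turned and were no longer called: Sall2 in Taf5l-KO (first 0.28) was -0.018 and -0.0029, and Pax6 in cMyc-KO (first -0.46) was 0.12 and 0.12. The causes of these changes were not tested. Depth limits Fgf5 in the Taf libraries, and Sox3 in the Taf knockouts rests on 34 to 53 counts a library.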
